A study of Homo sapiens with 4 samples.

Results

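The MEF2 and class IIa deacetylase axis was examined here as 10 genes: the MEF2 transcription factor genes MEF2A, MEF2B, MEF2C and MEF2D, the class IIa histone deacetylase genes HDAC4, HDAC5, HDAC7 and HDAC9, and the salt-inducible kinase genes SIK1 and SIK3. They were named by their place in this pathway, with earlier results of these data known, and they are 10 of 19962 protein-coding genes annotated on chromosomes 1 to 22 and X. The study proposed a core transcriptional circuit for acute myeloid leukemia (AML) that includes the zinc finger protein ZNF217 and MEF2D. Binding of ZNF217 was mapped by CUT&Tag, in which an antibody tethers a transposase that cuts and tags the DNA near the bound protein, so that the tagged fragments can be sequenced. The groups were untreated MV4-11 cells, a human AML line with a KMT2A fusion, and untreated U937 cells, a human myeloid leukemia line with a PICALM fusion, with 1 ZNF217 library each. Both are established lines grown without any agent, and 2 IgG libraries of the same lines are not analysed here.

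MEF2 proteins are MADS-box transcription factors that bind an A/T-rich site and can either activate or repress the genes they sit on. Class IIa deacetylases bind MEF2 proteins and recruit corepressors, which keeps MEF2 target genes silent. Salt-inducible kinases phosphorylate class IIa deacetylases, which are then bound by 14-3-3 proteins and held in the cytoplasm, so that MEF2 is released. In myeloid leukemia with KMT2A fusions, this branch of signalling, with MEF2C and SIK3 among its members, is known to sustain growth.

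The deposited lists gave the position of each ZNF217 peak on hg38 without a height, a score or a read count, so the number, width and overlap of peaks were what could be measured. The MV4-11 list held 37635 peaks and the U937 list 22521, of which 36356 and 21737 lay on chromosomes 1 to 22 and X, a ratio of 1.67 (1.65 to 1.70). Intervals throughout are exact 95% intervals that cover counting error only. With 1 library per line no test was possible, and a difference between the lines cannot be told apart from one between 2 libraries of unknown depth. Positions are printed as deposited and may be off by 1 bp, because the counting base was not given. Of 8 myeloid marker genes, 7 had a promoter peak in MV4-11 and 4 in U937, with the lysozyme gene LYZ in neither, and the counts were 1 of 5 and 0 of 5 for T-cell markers and 3 of 5 and 2 of 5 for B-cell markers. Beside the 59.0% of all protein-coding genes with such a peak in MV4-11 and the 50.5% in U937, these counts do not settle the identity of the cells.

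Sequence is shown first for stretches where a MEF2 site fell in a promoter of a member or in the centre of one of its peaks. These stretches were picked because they hold the match, and those of MEF2A, MEF2C and HDAC9 come from RefSeq promoters (GRCh38.p14). Letters run 5′ to 3′ on the strand of the gene, and capitals mark matches. Those at MEF2A, MEF2C and HDAC5 are kept to 30 bases around the match, which leaves out most of the annotated first exons there, and the others are 300 bases.
MEF2A promoter, chr15:99565951-99565980, plus strand, under a peak in MV4-11 only: ggcttgtctcCTAAAAATAGccccggtgtg
MEF2C internal promoter, chr5:88824500-88824529, minus strand, under no peak: atattccataTTATTTTTAAggtgttctca
MEF2D upstream peak, chr1:156502851-156503150, minus strand, under a peak in both lines: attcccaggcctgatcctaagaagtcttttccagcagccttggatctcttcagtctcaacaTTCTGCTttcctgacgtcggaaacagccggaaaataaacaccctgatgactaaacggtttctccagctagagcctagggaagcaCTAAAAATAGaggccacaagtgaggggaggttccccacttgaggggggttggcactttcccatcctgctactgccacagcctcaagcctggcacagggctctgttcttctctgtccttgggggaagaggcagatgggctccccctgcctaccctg
HDAC5 promoter, chr17:44123672-44123701, minus strand, under a peak in MV4-11 only: gggtctgggtCTATTTTTAGctccgggtcg
HDAC5 internal promoter, chr17:44111278-44111307, minus strand, under a peak in both lines: catgctccacCTATTTATAGacagggccct
HDAC9 promoter, chr7:18086575-18086874, plus strand, under no peak: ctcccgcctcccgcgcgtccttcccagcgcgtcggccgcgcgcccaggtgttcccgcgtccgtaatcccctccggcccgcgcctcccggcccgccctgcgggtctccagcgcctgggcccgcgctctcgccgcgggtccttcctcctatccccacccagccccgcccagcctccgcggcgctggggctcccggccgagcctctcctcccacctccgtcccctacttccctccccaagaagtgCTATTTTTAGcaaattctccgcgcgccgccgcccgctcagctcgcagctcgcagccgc

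Of the 6 MEF2 matches shown, 4 were the same 10 letters read on one strand or the other, and those of MEF2C and of the internal HDAC5 promoter differed from them. In MEF2A the match lay 19 bp before the canonical transcription start site (TSS), and in HDAC5 it lay 45 bp before it. In MEF2D it lay 2225 bp upstream, and a match to the ZNF217 core stood in the same stretch, 2311 bp upstream. HDAC9 is known from mouse muscle as a target of MEF2.

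A gene was counted as occupied when a peak overlapped 1 kb on either side of any of its annotated TSSs. By this rule 9 of the 10 genes were occupied in MV4-11 (interval 55.5 to 99.8%), beside 59.0% of all protein-coding genes. In U937, 5 of 10 were occupied (18.7 to 81.3%), beside 50.5% of all genes. The 5 genes occupied in both lines, MEF2B, MEF2C, MEF2D, HDAC5 and HDAC7, compare with a background of 47.4%. The 4 occupied in MV4-11 only, MEF2A, HDAC4, SIK1 and SIK3, compare with a background of 11.5%, and their share had an interval of 12.2 to 73.8%. No member was occupied in U937 only, and HDAC9 was occupied in neither line.

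Most of these genes have several promoters, and the count depended on which was used. At the canonical TSS of each gene, a choice made after the data were seen, 9 members had a peak in MV4-11 and 3 in U937. The 3 with a peak there in both lines were MEF2C, MEF2D and HDAC7 (interval 6.674 to 65.25%), beside 43.7% of all genes. A further 6 had one in MV4-11 only (26.24 to 87.84%), beside 10.9% of all genes. HDAC5 and MEF2B moved into that second set, because in U937 their peaks lay at other promoters, and HDAC9 had a peak there in neither line, like 42.6% of all genes. For SIK1, also in the MV4-11 only set, a second copy of the gene leaves the U937 state unsettled, as described below.

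Counted over the gene body and 50 kb on each side, the 10 loci held 87 peaks in MV4-11 and 33 in U937. The median over members was 2.32 peaks per 100 kb in MV4-11, beside 1.96 over all protein-coding genes. In U937 it was 0.73, which is below the 1.35 of all genes. The ratio was 2.64 (1.75 to 4.06), which is 1.58 times the ratio of the whole lists. It was 3.38 at the MEF2 loci (44 peaks in MV4-11 and 13 in U937, 1.79 to 6.85), 2.0 at the deacetylase loci (34 and 17, 1.09 to 3.82) and 3.0 at the kinase loci (9 and 3, 0.749 to 17.2). The intervals of the 3 groups overlap, and those of the deacetylase and kinase loci include the whole-list ratio. Most peaks of the MEF2 loci lay at MEF2B (20 in MV4-11 and 6 in U937) and MEF2D (18 and 6). The intervals take neighbouring peaks as independent counts. By place, promoter peaks of the members numbered 23 in MV4-11 and 7 in U937, promoter peaks of neighbouring genes 21 and 14, and all other peaks 43 and 12. The ratio was 1.5 (0.728 to 3.19) for the neighbours, 3.29 (1.37 to 9.07) for the members' own promoters and 3.58 (1.86 to 7.46) for the remaining peaks. The intervals of the neighbours and of the members' own promoters include the whole-list ratio, and all of these intervals overlap. The whole-list ratio mixes promoter peaks with others. Promoter peaks made up 14635 of 36356 peaks in MV4-11 and 10646 of 21737 in U937. It is therefore not the background of any single place, and no excess by place can be read from it. When the MV4-11 list was cut to its widest 21737 peaks, as many as U937 has, the loci held 59 peaks against 33, a ratio of 1.79. Both lists were then equally long, so the whole-list ratio of 1.67 is not the background of this value.

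**Figure D1:**
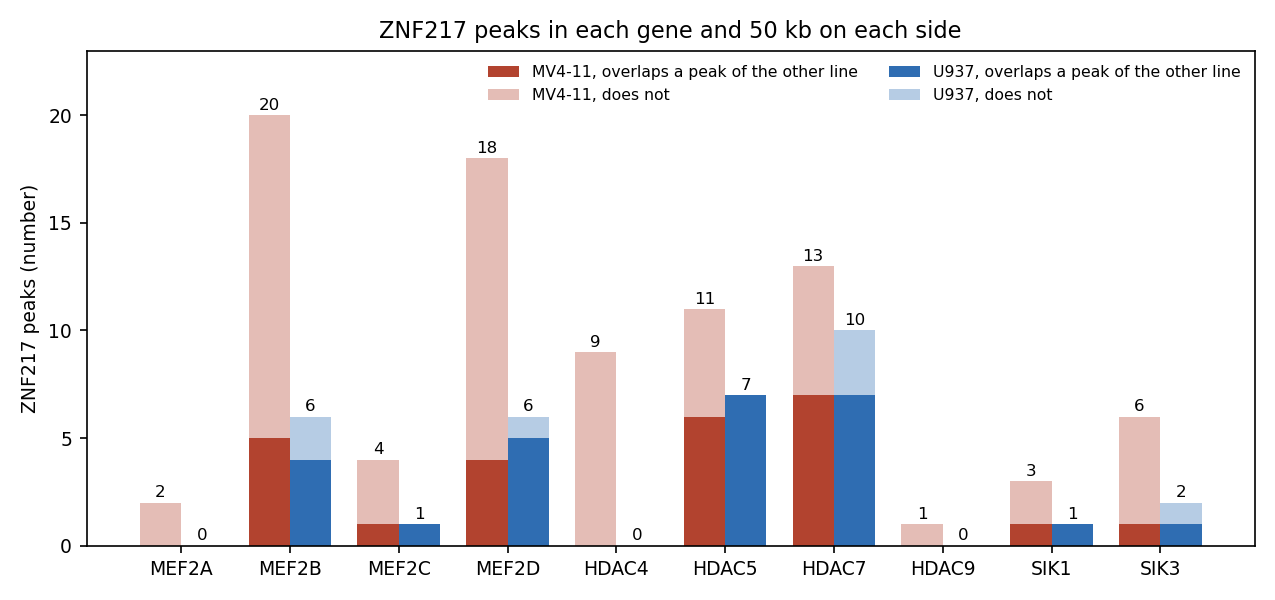
Number of ZNF217 peaks (vertical axis) in each gene body and 50 kb on each side, with MV4-11 left of U937 and the dark part of each bar standing for peaks that overlap a peak of the other line. MEF2B with 20 and MEF2D with 18 peaks lead in MV4-11, HDAC7 with 10 leads in U937, and every gene has more peaks in MV4-11 than in U937.

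MEF2D, the study's circuit factor, had the widest ZNF217 peaks of the 10 genes. The gene (chr1:156463727-156500779, minus strand) had 18 peaks in MV4-11 and 6 in U937, of which 4 and 5 were shared, shared meaning an overlap of 1 bp or more with any peak found in the other line. The peak over its canonical TSS was 5863 bp wide in MV4-11 (156497567 to 156503430), and the same stretch held 2 peaks in U937, of 2624 bp over the TSS and 869 bp just upstream. Inside the gene, at an internal promoter, a peak of 6190 bp in MV4-11 (156488796 to 156494986, centred 8.88 kb downstream of the TSS) enclosed one of 2603 bp in U937 (156490638 to 156493241).

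Only 36 of 11773 occupied genes had a wider widest promoter peak than MEF2D in MV4-11 (0.306%), and 260 of 10087 in U937 (2.58%). No other member reached 2000 bp in either line, against 8.66% of all genes in MV4-11 and 3.85% in U937. Peaks covered 20.9% of the MEF2D locus in MV4-11 and 7.08% in U937, and 2.25% and 6.99% of all genes were covered more densely. Shared peaks also flanked the gene, with 1541 bp in MV4-11 and 1291 bp in U937 centred 4.23 and 4.47 kb upstream of the TSS, and 1718 bp and 1566 bp centred 43.6 and 43.4 kb downstream of it. The other 14 MV4-11 peaks had no counterpart in U937. Among them was a run through the introns and past the end of the gene with widths of up to 2047 bp. Of 9467 other genes occupied in both lines, those most like MEF2D in the width of the widest promoter peak were HOOK2 and JUNB, which face one and the same peak (6351 bp in MV4-11, 2536 bp in U937), and SFMBT2, with 6587 bp and 2436 bp.

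MEF2C, the MEF2 factor best known in myeloid cells, had narrow peaks. In the gene (chr5:88717117-88904257, minus strand), which has 52 annotated TSSs, MV4-11 had 4 peaks and U937 had 1. The 1 shared peak stood at the canonical TSS, 564 bp wide in MV4-11 and 422 bp in U937, and the upstream edges of the pair lay 1 bp apart. The other MV4-11 peaks, of 758, 446 and 458 bp, each fell at a further MEF2C promoter, 6.37 kb upstream and 55.9 and 151 kb downstream of the canonical one. The widest promoter peak was exceeded by that of 72.4% of occupied genes in MV4-11 and 94.5% in U937.

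MEF2A (chr15:99565417-99716488, plus strand) was a case of wide occupancy in one line and none in the other. A peak of 1931 bp in MV4-11 (99564761 to 99566692) covered 12 of its 13 TSSs, and the stretch printed above lies inside it. No U937 peak lay nearer than 88.3 kb to any MEF2A TSS. The other MV4-11 peak of the locus, 923 bp wide, stood at the promoter of the neighbouring gene LYSMD4.

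MEF2B (chr19:19145567-19192131, minus strand) lies in a gene-dense stretch, overlaps the read-through gene BORCS8-MEF2B, and had 20 peaks in MV4-11 and 6 in U937. Its canonical TSS was under a peak of 1296 bp in MV4-11 (19170161 to 19171457), whereas the nearest U937 peak was 3.96 kb away. Its shared promoter peak, 1226 bp in MV4-11 and 1171 bp in U937, stood at the distal start used with BORCS8 and across from RFXANK, a subunit gene of the factor that drives MHC class II genes, so peaks there cannot be assigned to MEF2B alone. Its other shared peaks fell at promoters of TMEM161A, BORCS8 and NR2C2AP. Without MEF2B, the other 9 loci held 67 peaks in MV4-11 and 27 in U937, a ratio of 2.48, and without MEF2D they held 69 and 27, a ratio of 2.56.

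**Figure D2:**
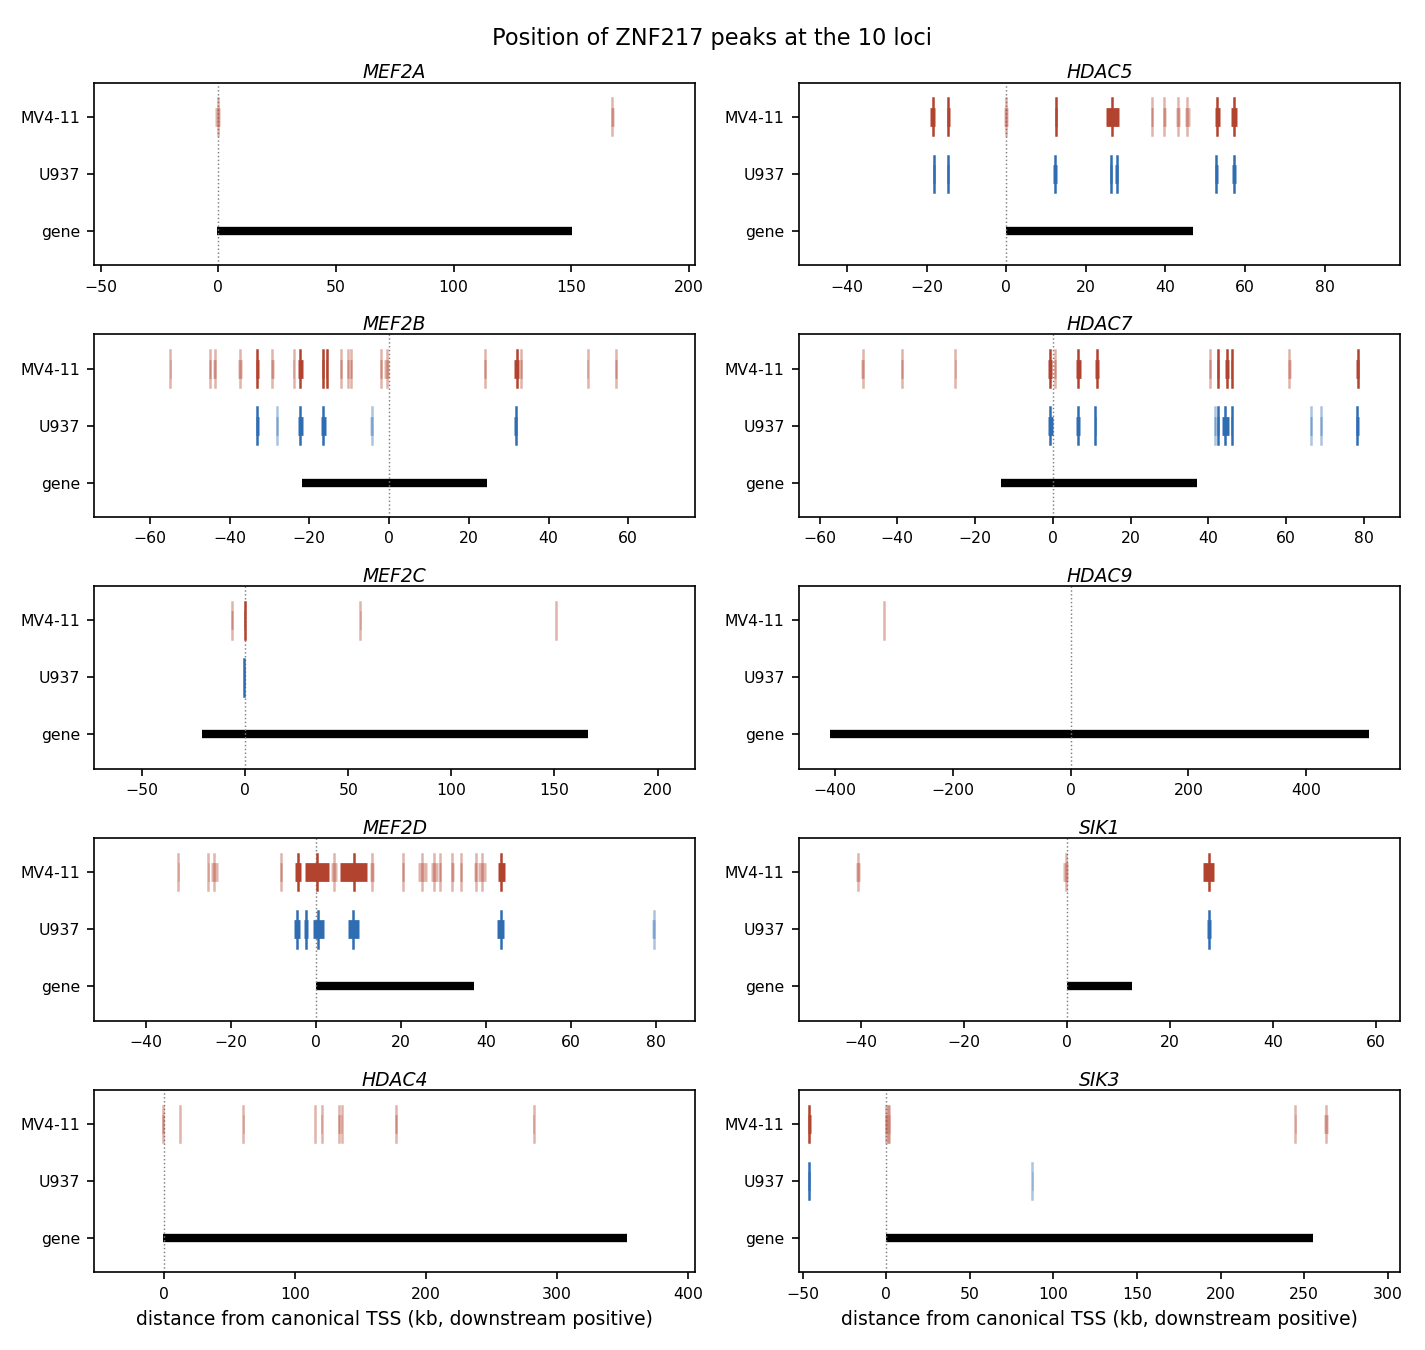
Position of every ZNF217 peak at the 10 loci in kb from the canonical TSS (horizontal axis, a separate scale per gene, downstream positive), with MV4-11 above U937 and the gene as a black bar, and full colour for peaks with an overlap in the other line. Narrow lines only mark peak centres. MEF2A, HDAC4 and HDAC9 have no peak in U937, and the U937 peaks of HDAC5 all fall on MV4-11 peaks.

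The class IIa deacetylases divided into a pair occupied in both lines and a pair that was not. HDAC7 (chr12:47782722-47833132, minus strand), the member of the class best known from thymocytes and endothelial cells, was closest between the lines, with 13 peaks in MV4-11 and 10 in U937, of which 7 and 7 were shared. At its canonical promoter a peak of 1001 bp in MV4-11 (47820057 to 47821058) lay within one of 1147 bp in U937 (47819967 to 47821114). Another promoter had peaks centred 6.55 kb downstream in MV4-11 (1361 bp) and 6.53 kb in U937 (965 bp), and a shared intronic peak measured 987 bp and 374 bp. A further promoter peak of 528 bp was found in MV4-11 only. The shared peaks outside the gene fell at RAPGEF3 and SLC48A1. In MV4-11, 3 more peaks of 321 to 773 bp stood in the part of VDR, the vitamin D receptor gene, that lies within 50 kb of HDAC7, where U937 had none.

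HDAC5 (chr17:44076746-44123702, minus strand) had 11 peaks in MV4-11 and 7 in U937, and all 7 U937 peaks were shared. The canonical promoter had a peak of 1110 bp in MV4-11 (44123210 to 44124320) and none in U937, where the nearest peak was 11.8 kb away. An internal promoter had a peak in both lines, 739 bp and centred 12.5 kb downstream in MV4-11, and 827 bp and centred 12.2 kb downstream in U937. Both stretches hold the MEF2 matches printed above. An intronic peak of 3301 bp in MV4-11 was met by 2 U937 peaks, 826 and 464 bp wide. Near the end of the gene, MV4-11 had 4 further peaks of 700 to 1355 bp beside annotated internal starts, none of them shared. The promoters of LSM12, G6PC3 and HROB on either side had peaks in both lines.

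HDAC4 (chr2:239048168-239401654, minus strand) had 9 peaks in MV4-11 and none in U937. The promoter peak was 1664 bp wide (239400523 to 239402187), and 8 intronic peaks measured 289 to 1688 bp. Among these, the peak of 1081 bp (239266796 to 239267877) covers an internal RefSeq promoter of HDAC4. That promoter has no start in the GENCODE annotation used for counting. In U937 the nearest peak to any HDAC4 TSS was 63.7 kb away. HDAC9 (chr7:18086949-19002416, plus strand), the longest of the genes at 915 kb, had a single intronic peak of 402 bp in MV4-11 and none in U937. Its nearest TSS lay 26.3 kb from a peak in MV4-11 and 146 kb in U937, so the MEF2 match in its first promoter was under no peak. Among 510 genes with a window of at least 500 kb the median was 1 peak in MV4-11 and 1 in U937, and 57.1% and 43.1% had no more than HDAC9.

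The annotated promoters of both kinases had peaks in MV4-11 and none in U937, although for SIK1 a second copy of the gene leaves the U937 state unsettled. SIK3 (chr11:116843402-117098437, minus strand), which phosphorylates HDAC4 in myeloid leukemia cells, had 6 peaks in MV4-11 and 2 in U937. Its start was under a peak of 924 bp in MV4-11 (117098259 to 117099183), with another of 571 bp just inside the gene. The nearest U937 peak to a SIK3 TSS was 45.5 kb away, at the shared promoter peak of PAFAH1B2 (MV4-11 1752 bp, U937 1219 bp). The other U937 peak, 369 bp and intronic, was not met in MV4-11, which had a peak of 2306 bp at APOA1 beyond the end of the gene.

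SIK1 (chr21:43414483-43427131, minus strand), an immediate-early gene induced by cyclic AMP, had 3 peaks in MV4-11 and 1 in U937. The promoter peak of 887 bp (43426948 to 43427835) was in MV4-11 only, and 27.5 kb downstream a peak of 2222 bp in MV4-11 (43398477 to 43400699) enclosed one of 638 bp in U937. The hg38 sequence holds a near-identical second copy of the gene at chr21:6111131-6123778. It aligned over 12649 bp with 99.9% identity and 11 mismatches, and GENCODE lists it as an artifact. Reads that span no mismatch cannot be told apart between them, so peaks at either place may belong to SIK1.

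The copy and the sequence around it had 5 peaks in MV4-11 and 2 in U937. At the place that matches the SIK1 promoter, MV4-11 had a peak of 1661 bp and U937 one of 427 bp, and the downstream pair recurred (2214 bp, MV4-11, and 528 bp, U937). With the copy counted, SIK1 would be occupied in both lines, and the members occupied in U937 would number 6. MEF2A, HDAC4 and SIK3 would remain occupied in MV4-11 only. The interval of 3 of 10 genes, 6.674 to 65.25%, includes the 11.5% of all genes.

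**Figure D3:**
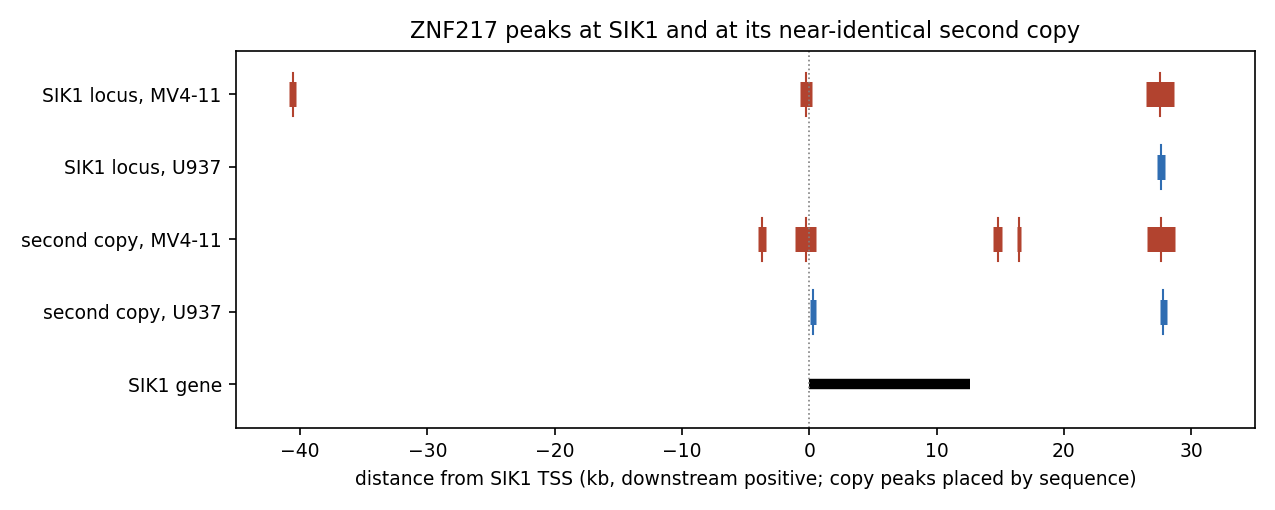
ZNF217 peaks at SIK1 and at its second copy, in kb from the SIK1 TSS (horizontal axis, downstream positive), with copy peaks placed by sequence match and MV4-11 above U937 for each place. The U937 row of the SIK1 locus is empty at the start of the gene, while that of the copy has a peak of 427 bp there.

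Over the 10 loci, 25 of 87 peaks in MV4-11 were shared (28.7%, 19.5 to 39.4%), beside 40.4% of the whole list. In U937, 26 of 33 were shared (78.8%, 61.1 to 91.0%), beside 68.6% of the whole list. The member promoter peaks alone gave 7 of 23 in MV4-11, beside 62.6% of all promoter peaks, and 7 of 7 in U937, beside 87.0%. The shared share differed by width. Of all MV4-11 promoter peaks under 600 bp, 30.7% were shared, against 91.7% of those of 2000 bp or more. The unshared MV4-11 peaks of MEF2A (1931 bp) and HDAC4 (1664 bp) fall in the class from 1500 to 2000 bp, in which 1321 of 1546 promoter peaks were shared (85.4%, 83.6 to 87.2%).

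At the members' loci the median width was 739 bp in MV4-11 and 758 bp in U937, beside 622 and 689 bp over the lists. Shared peaks were wider than unshared ones, with medians of 1141 and 597.5 bp in MV4-11 and 834.5 and 633 bp in U937. In the 27 overlapping pairs the MV4-11 peak was the wider in 19, beside 9556 of 15377 pairs in all, and the median width ratio was 1.39, beside 1.14. The median over members of the widest promoter peak was 1355 bp in MV4-11 and 1147 bp in U937, beside 1084 and 979 bp for all occupied genes.

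**Figure D4:**
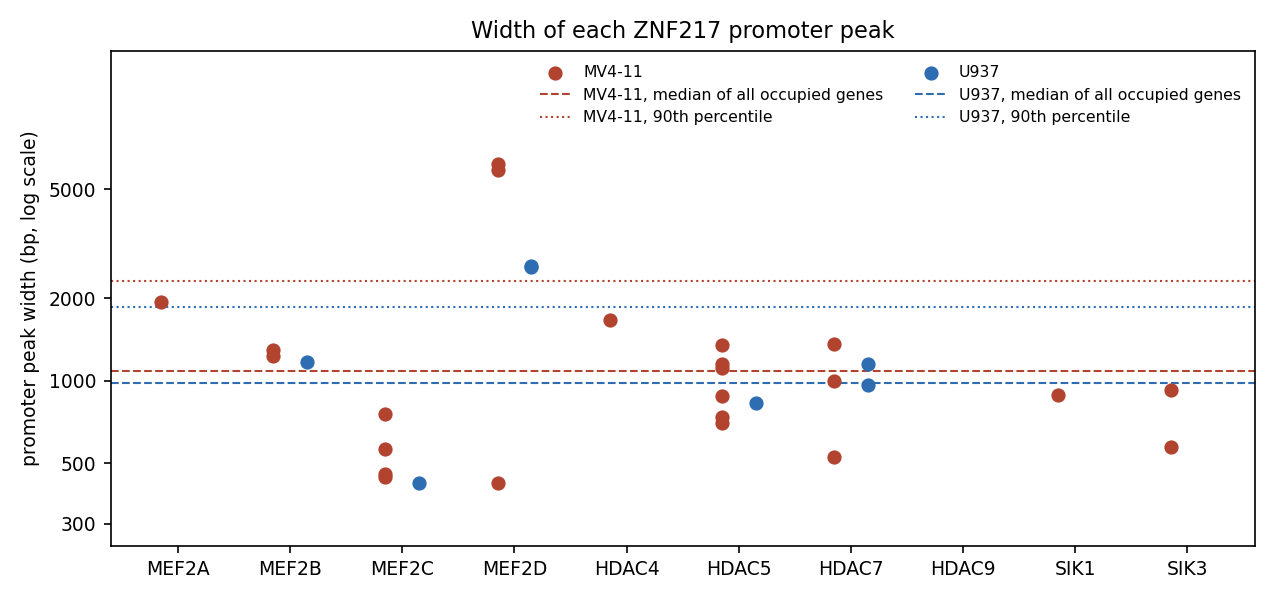
Width of each ZNF217 promoter peak of the 10 genes (vertical axis, bp, log scale), MV4-11 left of U937, with dashed lines at the median and dotted lines at the 90th percentile of the widest promoter peak over all occupied genes. The 2 wide MEF2D peaks of each line are the only points above the dotted line of their own line, and those of U937, 2603 and 2624 bp, overlie each other.

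The letters under the peaks were compared with those under all peaks in the central 300 bp, on both strands. The MEF2 consensus occurred in 2 of 87 member peaks in MV4-11 (2.30%, 0.280 to 8.06%), beside 1.55% of all peaks, and in 2 of 33 in U937 (6.06%, 0.743 to 20.2%), beside 1.5%. The ZNF217 core (TACAGAA and TGCAGAA as well as AACAGAA and also AGCAGAA) occurred in 8 of 87 in MV4-11 (9.20%, 4.05 to 17.3%), beside 18.3% of all peaks, and in 5 of 33 in U937 (15.2%, 5.11 to 31.9%), beside 16.1%. The MV4-11 interval lies narrowly below the share of the list and the U937 interval includes it. For the other motifs searched, the interval of each line includes the list share. These intervals were not adjusted for the number of motifs, and peaks of one locus are not independent. The full palindromic cyclic AMP response element (CRE) occurred in 1 of 87 in MV4-11 and in 0 of 33 in U937, beside 0.776% and 0.994% of all peaks. The RUNX site TGTGGT occurred in 20 of 87 member peaks in MV4-11 and 4 of 33 in U937 (12.1%), beside 22.1% and 18.1% of all peaks. The ETS site CCGGAAG occurred in 4 of 87 in MV4-11 and 1 of 33 in U937 (3.03%), beside 6.22% and 7.78%. No motifs overlapped each other in the stretches printed. Among 25 RefSeq promoters of 9 members, 3 held the MEF2 consensus, those of MEF2A, MEF2C and HDAC9 shown above, beside 2.99% of 35116 promoters. Several of the 25 belong to the same gene and some overlap, so no excess can be read from these shares. The ZNF217 core was in 5 of the 25, beside 18.8%, RUNX in 1, beside 13.1%, ETS in 1, beside 10.3%, and the CRE in 0, beside 1.85%.

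Base composition was compared at the canonical promoters. In 500 bp on each side of the canonical TSS, HDAC9 had 44.3% GC, the lowest of the 10, and 90.3% of genes had more. MEF2C, with 50.5%, was the next lowest and was occupied in both lines. The first promoter of HDAC9, printed above, was under no peak either and had 75% GC, in a shorter window of 300 bases. The other 8 genes had 61.7% (MEF2B) to 81.6% (SIK1). Over all genes the median was 63.6% for those with a canonical peak in both lines, 64.1% for MV4-11 only and 55.7% for neither. The part of base composition in the occupancy of these promoters was not tested.

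Genes around the axis were read from a list of 57 by role. With a peak at any TSS, 50 were occupied in MV4-11 and 45 in U937, and all 45 occupied in U937 were also occupied in MV4-11. Left without the 6 muscle-restricted genes, the list had 49 of 51 occupied in MV4-11 (96.1%, 86.5 to 99.5%) and 45 of 51 in U937 (88.2%, 76.1 to 95.6%), beside the 59.0% and 50.5% of all genes. The list was chosen by role, with earlier results of these data known, and no matched background was used. Whether ZNF217 prefers this axis was therefore not tested. All 7 class I, IIb and IV deacetylase genes of the list were occupied in both lines, such as HDAC1 (1238 bp in MV4-11 and 1318 bp in U937) and HDAC2 (1627 and 1745 bp), which form the catalytic core of several corepressor complexes. All 6 corepressors were too, such as NCOR1 (2752 bp in MV4-11 and 1918 bp in U937 cells), through which class IIa deacetylases reach HDAC3.

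Among the 12 kinases that drive export of class IIa deacetylases or activate those kinases, 8 were occupied in both lines (66.7%, 34.9 to 90.1%, an interval that includes the 47.4% of all genes). SIK2, the third salt-inducible kinase, had promoter peaks in both lines (1014 bp in MV4-11 and 1222 bp in U937), and STK11 (LKB1), which activates all of them, had 1512 and 1303 bp. PRKD3, a protein kinase D, and CAMK1, a calmodulin-dependent kinase, were occupied in MV4-11 only, with 777 and 746 bp, and PRKD1 and CAMK4 in neither. Of the 7 genes of 14-3-3 proteins, 6 were occupied in both lines, for example YWHAB (1060 and 830 bp) and YWHAE (545 and 1161 bp), and SFN, the epithelial form, in MV4-11 only (1728 bp).

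The 6 genes of the CREB arm, which salt-inducible kinases restrain through CRTC coactivators, were all occupied in both lines. CREB1 had 1224 bp in MV4-11 and 1517 bp in U937, and CRTC1 had 1764 and 630 bp. The 7 genes of the calcineurin and MAP kinase set were as well, with PPP3CA at 3194 and 2815 bp and PPP3CB at 1231 and 731 bp. Of 6 known MEF2 targets, 5 were occupied in both lines (83.3%, 35.9 to 99.6%, which also includes 47.4%), for example the nuclear receptors NR4A1 (1095 and 1075 bp) and NR4A3 (1681 and 1363 bp), while KLF2 had a peak of 799 bp in MV4-11 only. Of the muscle-restricted genes, CKM, muscle creatine kinase, had a peak of 389 bp in MV4-11 and none in U937, and MYOD1, MYOG, MYF5, MYF6 and DES had none in either line.

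**Figure D5:**
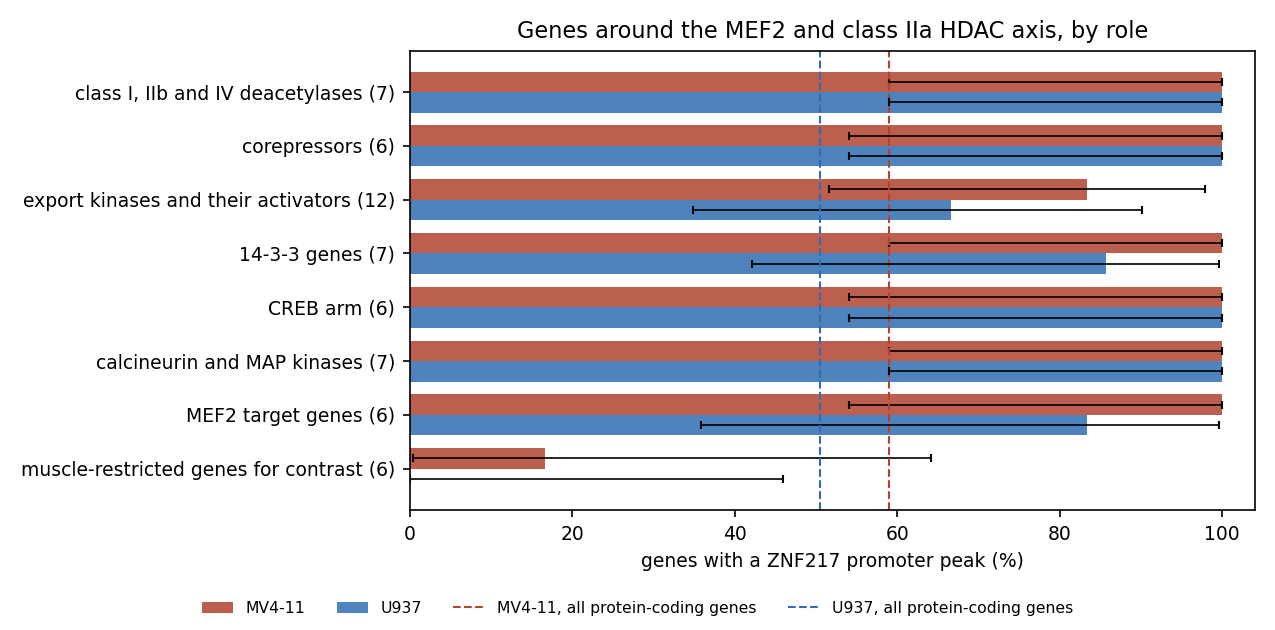
Share of genes with a ZNF217 promoter peak (horizontal axis, percent) by role, with the number of genes in parentheses, MV4-11 above U937, exact 95% intervals as black lines, and dashed lines at the share of all protein-coding genes in each line (59.0% and 50.5%). In 4 roles all genes are occupied in both lines, and in the muscle-restricted set 1 of 6 is occupied in MV4-11 and 0 of 6 in U937.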

How the data were processed

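Groups were taken from the sample titles. Per the labels and the study's methods, the authors prepared libraries with a CUT&Tag kit, aligned reads to hg38 with Bowtie2 2.4.4 and ran MACS3 3.0 on the paired-end fragments of each library with a q limit of 0.01 (versions from the submitters' processing notes). The use of IgG as a control, removal of duplicates and blacklist filtering are not given in the sources used here. The deposited values are of another unit than signal: positions of peaks, with no counts, so depth is unknown.

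Widths are end minus start. TSSs came from GENCODE 44, promoter sequences from RefSeq (GRCh38.p14), where HDAC5 had no entry, and other sequence from hg38. The canonical TSS is that of the transcript tagged canonical by Ensembl. Overlaps were computed with Python 3.11.15, NumPy 2.4.6, pandas 2.3.3 and SciPy 1.17.1 and tested on simulated data, the second copy of SIK1 was found with BLAST+ 2.17.0, samtools 1.23.1 read the sequences, and Matplotlib 3.10.9 made the figures. Shares have Clopper-Pearson intervals, and ratios of counts intervals from the exact conditional binomial.

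All 10 members were named, with pathway genes occupied in 1 line or neither, up to 2 per role occupied in both, the 3 genes most like MEF2D in promoter peak width (sum of absolute log2 width differences), and neighbours whose promoters the peaks met. A pathway gene and a sequence that the rules would name are not reported here. VDR was named after its values were seen. The members and lists were chosen with earlier results of these data known. Alternatives were other promoter windows and TSSs, minimum width, equally long lists, merging, flanks, overlap rules and the SIK1 copy.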

Additional observations from a re-analysis of the deposited data

How the results depend on the processing

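Of 69 alternative values, 8 moved, which for a count means by over 1.5 times, and the other 61 did not. Counts that changed by less include the 59 MV4-11 peaks of the equally long lists and the 7 members occupied in MV4-11 with 1 TSS per gene. With 1 TSS per gene, the 5′ end of the gene record, the members occupied in U937 and in both lines numbered 2, since MEF2C and HDAC7 then had no promoter peak in either line and HDAC5 had one in MV4-11 only, and with the canonical TSS alone, a choice made after the data were seen, they numbered 3. Flanks of 100 kb gave 141 peaks in MV4-11 and 69 in U937. A reciprocal overlap of 50% left 18.4% of the member peaks shared in MV4-11 and 48.5% in U937. The ratio of peak numbers stayed between 1.79 (equally long lists) and 2.64. No paired analysis was possible because each line had 1 library and the labels number no replicates, and for the same reason no library could be left out. Depth limits every absence: a promoter without a peak is one where none was called, and no limit can be set on binding there.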
